A study of Homo sapiens with 24 samples.

Results

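Lipid droplets are organelles that store triacylglycerol and sterol esters under a monolayer of phospholipid and coat proteins, and 9 genes that build, coat or empty them were followed in 24 RNA-seq libraries of RCC4+VHL cells. The genes were chosen by name, for their roles in the droplet and with earlier results of these data known, and no measured value enters the choice rule. They were HILPDA, PLIN2, PLIN3, PNPLA2, G0S2, DGAT1, DGAT2, ABHD5 and MGLL. All 9 were among the 23106 gene symbols counted. Of these, 7 were among the 11735 genes that passed a filter on low counts and were tested, whereas G0S2 and DGAT2 did not pass it.

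RCC4+VHL is a clone of RCC4, a renal cell carcinoma line that lacks functional VHL, in which VHL was put back by stable transfection with the plasmid pcDNA3-VHL. VHL is the ubiquitin ligase subunit that marks HIF-α for destruction when oxygen is present, so all 4 groups carry the same restored, oxygen-dependent control of HIF. The groups were normoxia (21% oxygen) with the vehicle DMSO at 0.1%, normoxia with ITE at 100 nM, hypoxia (0.5% oxygen) with DMSO, and hypoxia with ITE. ITE is an indole-based ligand of the aryl hydrocarbon receptor (AHR), a transcription factor that shares the partner ARNT with HIF-α. Each group had 6 replicates and each treatment lasted 6 h.

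Triacylglycerol is finished by the diacylglycerol acyltransferases DGAT1 and DGAT2 and is coated by perilipins such as PLIN2 and PLIN3. It is broken down stepwise: PNPLA2 (adipose triglyceride lipase) removes the first fatty acid, and MGLL (monoacylglycerol lipase) removes the last. ABHD5 is the co-activator of PNPLA2, whereas G0S2 and HILPDA are small proteins that inhibit it. Clear cell renal carcinoma, the tumour type that loses VHL, is named for cytoplasm rich in lipid and glycogen.

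Total counts per library ran from 770094 to 93851342. Both shallowest libraries were hypoxic: hypoxia + DMSO replicate 2 held 770094 counts and hypoxia + ITE replicate 1 held 1357702. A further library, hypoxia + ITE replicate 6, stood apart from its group across all genes, with a median absolute deviation of 0.68 on the log2 scale against at most 0.36 in the other 23 libraries. Results that rest on these 3 libraries are given with and without them. The treatments were visible in their usual targets. NDRG1, a HIF target, lay between 27.8 and 44.1 CPM (the counts-per-million unit, on TMM-scaled library sizes) in the 12 normoxic libraries and between 206 and 376 CPM in the 12 hypoxic ones. CYP1B1, an AHR target, lay between 31.4 and 70.6 CPM with DMSO and between 106 and 391 CPM with ITE. All 6 markers of renal carcinoma cells (PAX8, PAX2, KRT8, KRT18, CDH2 and VIM) passed the filter, and their summed level was lowest at 3367 CPM and highest at 6589 CPM, the latter in hypoxia + ITE. The 4 adipocyte markers ADIPOQ, LEP, PLIN1 and CIDEC together reached at most 0.231 CPM in any library, and no marker of leukocytes, endothelium or hepatocytes passed the filter. The summed endothelial markers PECAM1, CDH5 and VWF were highest in normoxia + DMSO replicate 4, at 3.31 CPM, and at most 0.826 CPM in the other libraries. The leukocyte marker PTPRC also had counts, 6 in number, in that library alone.

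Per kilobase of transcript, which allows levels of different genes to be compared, PLIN3 was the most abundant member in normoxia + DMSO, with a median of 76.4 CPM per kb. PNPLA2 followed with 54.9 CPM per kb, and the 2 genes did not overlap. PLIN2 at 37.1 and MGLL at 35.0 CPM per kb came next and overlapped. HILPDA at 9.77 and ABHD5 at 9.08 CPM per kb also overlapped with each other and stood above DGAT1 at 3.82 CPM per kb. DGAT2 had a median of 0.0955 CPM per kb, and G0S2 had a median of 0. In hypoxia + DMSO the order changed at the top: PLIN2, at 123 CPM per kb, lay above PLIN3, at 73.5 CPM per kb, without overlap. HILPDA rose in that order to a median of 37.1 CPM per kb, with a range that overlapped that of MGLL.

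The first comparison asked what hypoxia did to these genes without ITE, and 2 of the 7 tested members passed the threshold of an adjusted p under 0.05. HILPDA and PLIN2 were both higher in hypoxia + DMSO than in normoxia + DMSO, and no member was lower. Over all genes tested, 1.3% were called in this comparison. The median log2 fold change of the 7 tested members was 0.02, beside 0.00 for all genes, and -0.03 without normoxia + DMSO replicate 4. Without that library HILPDA was at 1.88 and PLIN2 at 1.74, both called. The RNA is from whole cultures, so a change in the share of cells that express a gene and a change per cell cannot be told apart.

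HILPDA (hypoxia inducible lipid droplet associated; GRCh37 chromosome 7, 128095903 to 128098472, plus strand) has 2 exons in its reference transcript of 1364 bases. Its exons share bases on the same strand with the annotated transcript HILPDA-AS1, which is not counted separately here, so reads in the shared bases cannot be assigned between them. HILPDA exons also overlap an unnamed transcript on that strand. In normoxia + DMSO, HILPDA was lowest at 11.5 CPM, had a median of 13.3 and was highest at 14.5 CPM. In hypoxia + DMSO the 6 libraries gave 46.0, 15.1, 47.1, 61.1, 54.8 and 54.2 CPM. Every hypoxic library was thus above every normoxic one, but replicate 2 only narrowly so. The log2 fold change was 1.86 (SE 0.23, adjusted p = 2.97e-06), a 3.63-fold difference with a 95% interval from 2.62 to 5.02.

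The low value in hypoxia + DMSO replicate 2 rests on 11 counts, for which the exact Poisson interval runs from 7.55 to 27.0 CPM. This interval covers counting error alone and lies below the other 5 libraries of the group. In the same library NDRG1 was at 349 CPM and PLIN2 at 280 CPM, the highest PLIN2 value of all 24 libraries. In hypoxia + ITE, replicate 1, the second shallowest library, likewise gave HILPDA at 10.4 CPM from 14 counts (5.69 to 17.4 CPM), with NDRG1 at 206 CPM and PLIN2 at 152 CPM. The part of depth in these low values was not tested. Leaving out both libraries raised the log2 fold change of HILPDA to 1.98 for hypoxia with DMSO and to 1.78 for hypoxia with ITE, and it was called in both.

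PLIN2 (perilipin 2; GRCh37 chromosome 9, 19108373 to 19149288, minus strand) encodes the coat protein found on droplets of most cell types outside fat tissue. The normoxia + DMSO libraries lay between 62.4 and 74.0 CPM, with a median of 70.3 CPM. The hypoxia + DMSO libraries gave 228, 280, 225, 239, 180 and 245 CPM. The groups were well apart, with the lowest hypoxic library 2.43 times the highest normoxic one. PLIN2 rose by a log2 fold change of 1.74 (SE 0.13, adjusted p = 3.85e-10), or 3.33-fold with a 95% interval from 2.76 to 4.03. PLIN2 thus had a smaller error than HILPDA at a similar size of change.

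PLIN3 (perilipin 3; GRCh37 chromosome 19, 4838353 to 4867706, minus strand) is the other perilipin with a high level in these cells and is known to move from the cytosol to newly formed droplets. It gave 170, 167, 173, 171, 199 and 160 CPM in normoxia + DMSO, and in hypoxia + DMSO it lay between 157 and 181 CPM. These groups overlapped. The log2 fold change was -0.05 (SE 0.18, adjusted p = 0.971), with a 95% interval from -0.41 to 0.32, which leaves out a change of the size seen for PLIN2. The promoters of PLIN2 and PLIN3 are shown because the coat gene that was called and the one that was not can be set side by side. Each is the 250 bases before the transcription start in the RefSeq promoter table (GRCh38.p14, minus strand, chr9:19127493-19127742 for PLIN2 and chr19:4867668-4867917 for PLIN3), written 5′ to 3′. Capitals mark matches, on either strand, to ACGTG, the core of the hypoxia response element, and GCGTG, the core of the xenobiotic response element bound by AHR.
PLIN2: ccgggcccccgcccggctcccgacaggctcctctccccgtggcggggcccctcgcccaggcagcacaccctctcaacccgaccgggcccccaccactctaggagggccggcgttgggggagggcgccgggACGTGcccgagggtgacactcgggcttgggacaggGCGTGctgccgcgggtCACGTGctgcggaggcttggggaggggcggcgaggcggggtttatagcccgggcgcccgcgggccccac
PLIN3: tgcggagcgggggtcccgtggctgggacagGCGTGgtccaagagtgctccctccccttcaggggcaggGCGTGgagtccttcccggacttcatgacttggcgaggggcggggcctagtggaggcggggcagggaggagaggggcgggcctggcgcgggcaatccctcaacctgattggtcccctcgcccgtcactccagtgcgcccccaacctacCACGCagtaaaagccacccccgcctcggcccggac

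The PLIN2 window held ACGTG 3 times, counting each strand. One match lay 120 to 116 bases before the start, and the other two were the overlapping strands of the palindrome between bases 69 and 64. It held GCGTG 1 time, 85 to 81 bases before the start. The PLIN3 window held ACGTG 0 times and GCGTG 3 times. The study also gives a wider HIF motif that takes in both ACGTG and GCGTG. Under it the PLIN3 window held 3 matches, so a lack of ACGTG is not a lack of HIF motifs. Of 35116 promoter windows of this length in the table, 18.5% held ACGTG at least 1 time and 32.2% held GCGTG. Among the other members in the table, the windows of PNPLA2, G0S2 and ABHD5 held no ACGTG. Windows of G0S2 and ABHD5 did hold GCGTG, and that of PNPLA2 did not. HILPDA, MGLL and both DGAT genes have no window in it. A match is a stretch of letters and does not show that a factor was bound.

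**Figure D1:**
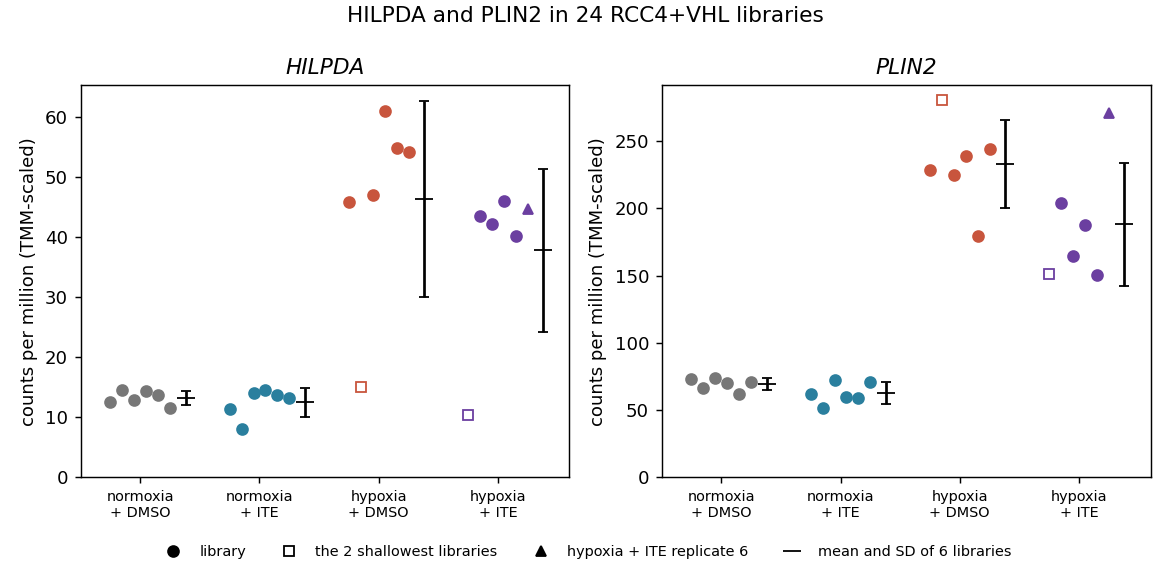
HILPDA and PLIN2 in CPM (vertical axis, linear from 0) in each of the 24 libraries by group, with the mean and SD of 6 libraries beside each group. The 2 open squares are the shallowest libraries, which hold the low HILPDA values of 15.1 and 10.4 CPM, whereas for PLIN2 every hypoxic library is above every normoxic one.

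The same question asked with ITE present gave the same 2 calls, HILPDA and PLIN2 higher, out of 7 tested members, where 2.35% of all genes were called. The median log2 fold change of the tested members was 0.34, beside 0.02 for all genes, and it was 0.12 without hypoxia + ITE replicate 6. In normoxia + ITE, HILPDA ran from 8.03 to 14.6 CPM with a median of 13.5 CPM. In hypoxia + ITE it was at 10.4, 43.6, 42.3, 46.0, 40.2 and 44.7 CPM. The groups overlapped through replicate 1, and the other 5 hypoxic libraries were all at 40.2 CPM or more. HILPDA rose by 1.63 on the log2 scale (SE 0.23, adjusted p = 3.03e-05).

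PLIN2 in normoxia + ITE lay between 51.4 and 72.7 CPM, with a median of 61.1 CPM. In hypoxia + ITE its values were 152, 204, 164, 188, 151 and 271 CPM. The highest of these is replicate 6, the library that stood apart, and the lowest is 2.07 times the highest normoxic value. The log2 fold change was 1.59 (SE 0.13, adjusted p = 2.92e-09), and without replicate 6 of hypoxia + ITE it was 1.46.

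Hypoxia and ITE together against neither also gave HILPDA and PLIN2 as the members called, both higher. Here 2.32% of all genes were called, 1.79% higher and 0.528% lower. HILPDA differed by 1.55 (SE 0.23, adjusted p = 4.80e-05) and PLIN2 by 1.44 (SE 0.13, adjusted p = 1.77e-08) on the log2 scale. This comparison shares its libraries with those before it and is not a separate observation of them.

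ITE alone left the members without a call. In normoxia 0 of the 7 tested members passed, where 0.0511% of all genes, 6 in number, were called, and 0 members had an unadjusted p under 0.05. Of the 11735 genes tested, 171 had such a p. DESeq2 likewise called 0 members. The log2 fold changes ran from -0.17 for ABHD5 to 0.04 for DGAT1, with a median of -0.11. ABHD5 and MGLL were lower with ITE in 6 of 6 libraries when set against the same-numbered DMSO library, though the groups overlapped for both. The numbers were not taken to pair the samples, so this count is only a description. The 95% intervals were -0.55 to 0.39 for HILPDA and -0.42 to 0.12 for PLIN2, so each leaves room for a modest change in either direction.

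In hypoxia, adding ITE gave 0 calls among the 7 members, where 0.0597% of all genes, 7 in number, were called. DESeq2 called 0 members too, and 2 members, PLIN2 and PLIN3, had an unadjusted p under 0.05 in edgeR. Of the 11735 genes tested, 1122 had such a p. Mean PLIN2 was 188 ± 45.6 CPM (SD, n = 6) in hypoxia + ITE and 233 ± 32.7 CPM (SD, n = 6) in hypoxia + DMSO, and the groups overlapped. Its log2 fold change was -0.30 (SE 0.13, adjusted p = 0.495), with a 95% interval from -0.57 to -0.03. Without hypoxia + ITE replicate 6 the difference was -0.42 (unadjusted p = 0.000434, adjusted p = 0.395). Without that library and the 2 shallowest ones it was -0.33 (unadjusted p = 0.00521, adjusted p = 0.9997). HILPDA differed by -0.30 (SE 0.22, adjusted p = 0.646). Among the 5 libraries of each group that were not the shallowest, HILPDA lay between 45.97 and 61.1 CPM with DMSO and between 40.2 and 46.03 CPM with ITE. These ranges overlapped narrowly. Without the 2 shallowest libraries the log2 difference was -0.28 (adjusted p = 0.440).

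The interaction term asked whether the change with hypoxia differed between ITE and DMSO. It called 0 members and 0% of all genes tested in edgeR, where 374 genes and 0 members had an unadjusted p under 0.05, and DESeq2 called 0 members. The term was -0.23 (SE 0.32) for HILPDA and -0.15 (SE 0.18) for PLIN2 on the log2 scale. MGLL had the largest term of the 7, at 0.59 (SE 0.31, unadjusted p = 0.0662), with an interval from -0.04 to 1.22. Without hypoxia + ITE replicate 6 the MGLL term was 0.20 (SE 0.19, unadjusted p = 0.308). In that fit it was smaller in size than the terms of PLIN2, at -0.27, and HILPDA, at -0.26. The intervals, from -0.88 to 0.42 for HILPDA and from -0.53 to 0.23 for PLIN2, do not show that ITE leaves the response to hypoxia as it was.

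**Figure D2:**
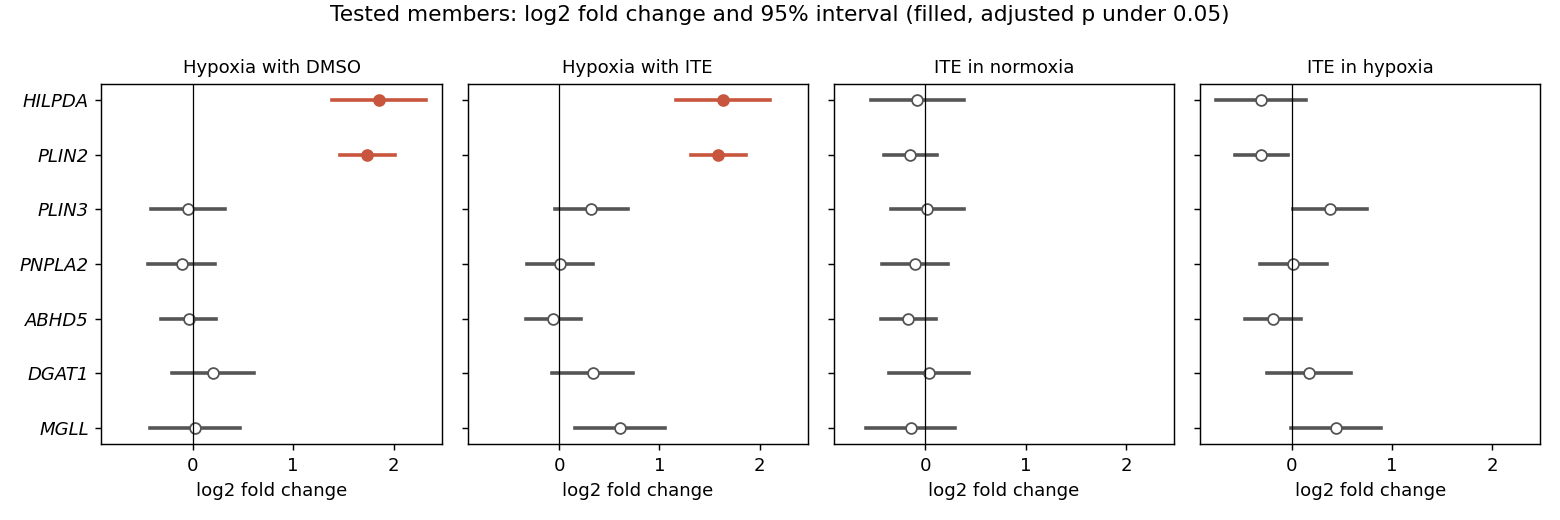
Log2 fold change (points) and 95% interval (lines) of the 7 tested members in 4 comparisons, with filled red points for an adjusted p under 0.05. HILPDA and PLIN2 are past the threshold in both hypoxia comparisons, at 1.86 and 1.74 with DMSO and at 1.63 and 1.59 with ITE, and no member is past it in either ITE comparison.

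The lipase PNPLA2 (GRCh37 chromosome 11, 818914 to 825573, plus strand) was at 131, 144, 142, 123, 134 and 131 CPM in normoxia + DMSO and between 116 and 135 CPM in hypoxia + DMSO. The groups overlapped, with a log2 fold change of -0.11 (SE 0.16, adjusted p = 0.896). With ITE in hypoxia its values were 83.9, 130, 77.7, 118, 115 and 229 CPM, a wider spread than in any other group. The co-activator ABHD5 (GRCh37 chromosome 3, 43731600 to 43775863, plus strand) lay between 42.2 and 53.5 CPM in normoxia + DMSO and between 31.6 and 52.3 CPM in hypoxia + DMSO. Its lowest value in any library was 26.8 CPM, in hypoxia + ITE replicate 6, where PNPLA2 was highest. ABHD5 differed by -0.04 (SE 0.13, adjusted p = 0.960) with hypoxia and DMSO and by -0.06 (SE 0.13, adjusted p = 0.859) with hypoxia and ITE.

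G0S2 (GRCh37 chromosome 1, 209848757 to 209849735, plus strand), the inhibitor of PNPLA2 known from fat and liver, was hardly present. It had 0 counts in 23 libraries and 5 counts in normoxia + DMSO replicate 4, which is 0.184 CPM. In the same library PECAM1 (22 counts), PTPRC (6 counts), LPL (5 counts) and FABP7 (157 counts, 5.78 CPM) were found, each with 0 counts in the other 23 libraries, and VWF was at its highest, 1.84 CPM. Their part in the G0S2 counts was not tested. Over the 6 libraries of hypoxia + DMSO there were 0 counts in 63797061, where a floor of 3 counts corresponds to 0.0461 CPM, and over hypoxia + ITE 0 counts in 162043543, where it corresponds to 0.0185 CPM, for counting error only. Of these inhibitors of PNPLA2, HILPDA was the one that passed the filter.

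Within each library, the ratio of HILPDA to PNPLA2 read counts does not depend on how libraries are scaled to each other. It was between 0.0878 and 0.118 in normoxia + DMSO and between 0.112 and 0.502 in hypoxia + DMSO, with medians of 0.0983 and 0.421. The groups overlapped through the shallowest library. In normoxia + ITE the median was 0.108, and in hypoxia + ITE it was 0.343 with a range from 0.124 to 0.544. The ratio of PLIN2 to PLIN3 ran from 0.313 to 0.440 in normoxia + DMSO and from 1.11 to 1.70 in hypoxia + DMSO, without overlap. With ITE it ran from 0.302 to 0.415 in normoxia and from 0.586 to 1.22 in hypoxia, the lowest hypoxic value being replicate 6. The median in hypoxia was 1.38 with DMSO and 0.923 with ITE. The ratio of ABHD5 to PNPLA2 overlapped between all groups, with medians from 0.331 to 0.388.

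**Figure D3:**
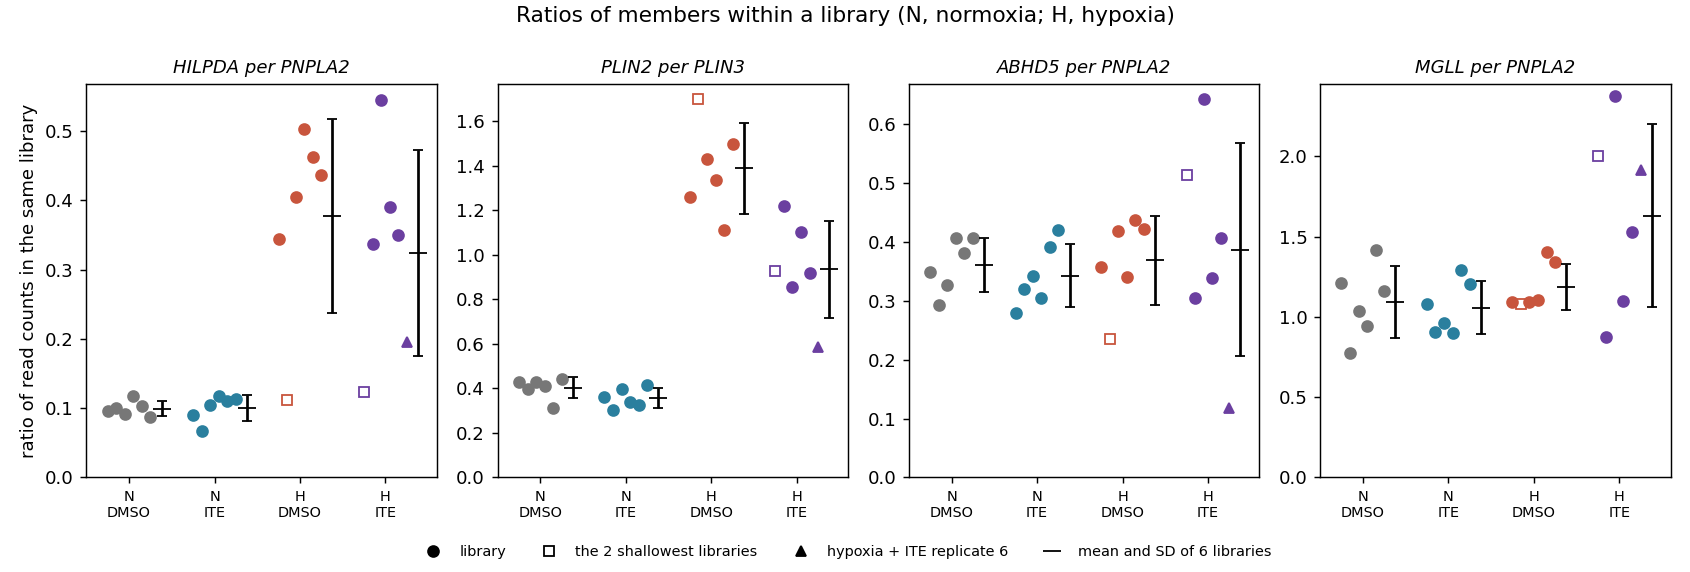
Ratios of read counts of 2 members in the same library (vertical axes, linear from 0) for each of the 24 libraries, with the mean and SD of 6 libraries per group. PLIN2 per PLIN3 does not overlap between normoxia and hypoxia, and HILPDA per PNPLA2 overlaps through the shallowest library, at 0.112, whereas ABHD5 per PNPLA2 and MGLL per PNPLA2 overlap in all groups.

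MGLL (GRCh37 chromosome 3, 127407905 to 127771033, minus strand) gave 158, 112, 147, 116, 190 and 153 CPM in normoxia + DMSO and between 127 and 166 CPM in hypoxia + DMSO. The groups overlapped, with a log2 fold change of 0.02 (SE 0.22, adjusted p = 0.992). With ITE it ran from 108 to 160 CPM in normoxia, and in hypoxia its values were 168, 113, 184, 130, 176 and 438 CPM. The log2 fold change with ITE was 0.61 (SE 0.22, adjusted p = 0.121). It fell to 0.22 (adjusted p = 0.501) without hypoxia + ITE replicate 6, and it was called, at 0.71 (adjusted p = 0.0497), when hypoxia + ITE replicate 4 was left out, a fit in which 6.21% of all genes were called, so single libraries decide it.

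DGAT1 lies on GRCh37 chromosome 8 (145538247 to 145550573, minus strand). It gave 9.64, 14.5, 15.8, 16.1, 11.6 and 13.4 CPM in normoxia + DMSO and between 14.4 and 19.2 CPM in hypoxia + DMSO, with overlap. Its log2 fold change was 0.20 (SE 0.20, adjusted p = 0.816) with DMSO and 0.34 (SE 0.20, adjusted p = 0.342) with ITE, and the latter was 0.12 without hypoxia + ITE replicate 6. The gene's exons overlap HSF1 on the opposite strand, as exons of PLIN3, PNPLA2 and DGAT2 overlap unnamed antisense transcripts, and whether counting used strand is not given in the sources used here. DGAT1 exons also overlap an unnamed transcript on the same strand, which counting by strand would not resolve.

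DGAT2 (GRCh37 chromosome 11, 75470557 to 75512580, plus strand) was close to the limit of detection. Its counts were 2, 8, 21, 7, 0 and 3 in normoxia + DMSO and 0, 0, 0, 0, 10 and 4 in normoxia + ITE. In hypoxia they were 0, 0, 1, 0, 3 and 0 with DMSO and 0, 3, 1, 3, 1 and 0 with ITE. Summed over libraries, this was 0.207 CPM (exact Poisson 95% interval 0.148 to 0.280) in normoxia + DMSO and 0.0614 CPM (0.0167 to 0.157) in hypoxia + DMSO. In normoxia + ITE it was 0.158 CPM (0.0862 to 0.264), and in hypoxia + ITE 0.0494 CPM (0.0213 to 0.0974). These intervals cover counting error only, and the hypoxia + DMSO value rests on 4 counts. In a fit without the filter on low counts the unadjusted p was 0.048 and the adjusted p was 0.551 for hypoxia with DMSO. For both stimuli against neither they were 0.026 and 0.230, and no comparison called DGAT2 at this depth. DGAT1 reads outnumbered DGAT2 reads 72.6 to 1 over the normoxia + DMSO libraries, before any scaling by length.

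**Figure D4:**
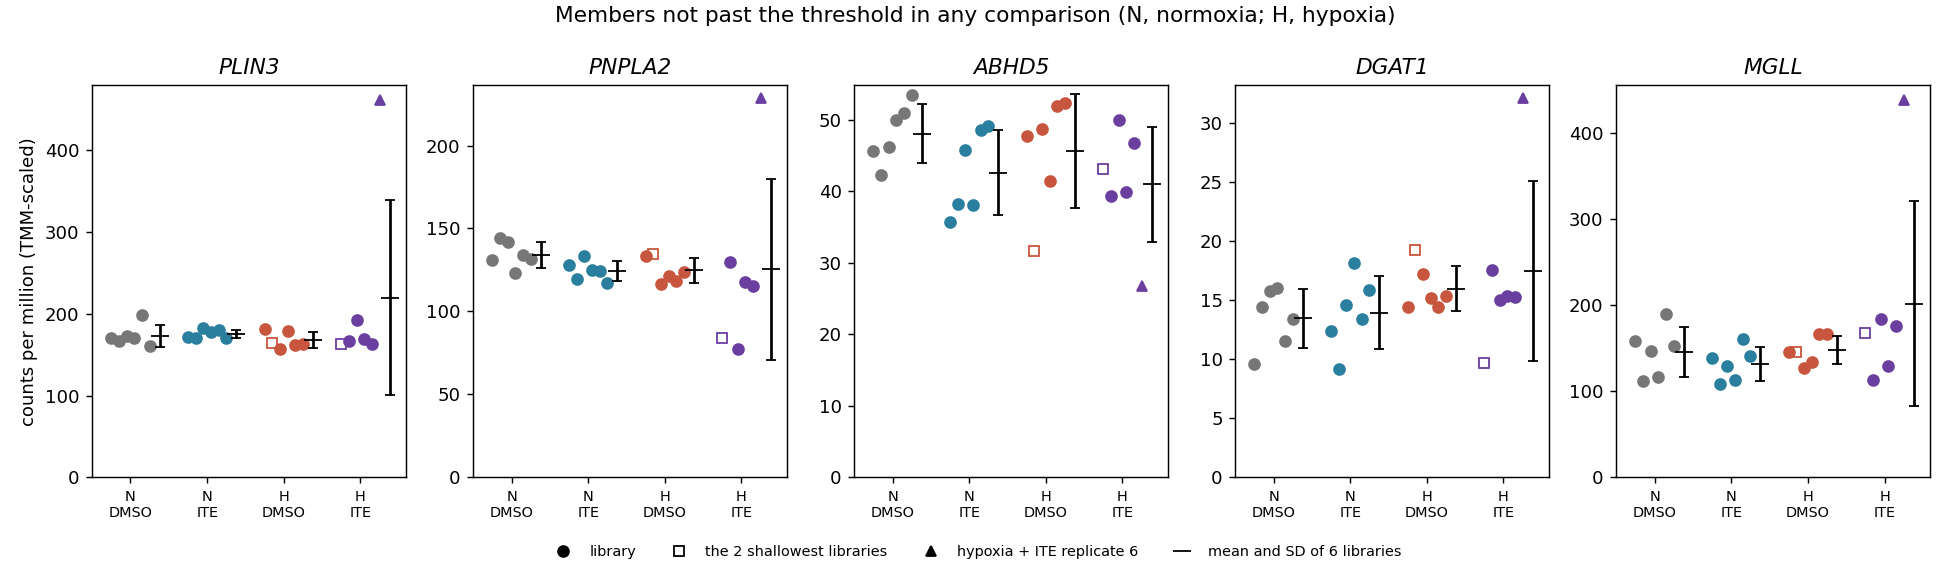
The 5 tested members that no comparison called, in CPM (vertical axes, linear from 0) in each library, with the mean and SD of 6 libraries per group (N, normoxia; H, hypoxia). The triangle is hypoxia + ITE replicate 6, the highest library for PLIN3 at 462, PNPLA2 at 229, DGAT1 at 32.1 and MGLL at 438 CPM and the lowest for ABHD5 at 26.8 CPM.

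Hypoxia + ITE replicate 6 decides the size of several values that were not called. PLIN3 was at 462 CPM in it, whereas the rest of hypoxia + ITE lay between 163 and 192 CPM. The log2 fold change of PLIN3 for hypoxia with ITE was 0.32 (adjusted p = 0.317) with that library and -0.04 (adjusted p = 0.864) without it. For ITE in hypoxia it was 0.39 (adjusted p = 0.508) with it and 0.03 (adjusted p = 0.9997) without it. For hypoxia with ITE, PNPLA2 was at 0.01 with that library and at -0.23 (adjusted p = 0.306) without it. For ITE in hypoxia PNPLA2 was at 0.01 with it and at -0.23 (adjusted p = 0.9997) without it. The lowest adjusted p of PNPLA2 without that library was for both stimuli against neither. There PNPLA2 was at -0.09 (adjusted p = 0.790) with that library and at -0.34 (unadjusted p = 0.00225, adjusted p = 0.0727) without it, not called.

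Genes around the members were read from 5 lists of the pathway with 86 genes in all, of which 55 were tested. The droplet coat and biogenesis list had 17 genes, with 9 tested and 0 called in any comparison. Other perilipins were nearly absent: PLIN1 was at most 0.147 CPM, PLIN4 at most 0.405 CPM and PLIN5 at most 0.0368 CPM in any library, and PLIN2 and PLIN3 together made up at least 99.77% of the reads of these 5 perilipins in each library. The list of triacylglycerol and sterol ester synthesis had 12 of 17 genes tested, and that of fatty acid uptake, binding and activation had 12 of 21. Neither had a call in any comparison of the main fit. Their median log2 fold changes for hypoxia with DMSO were -0.11 and -0.02. Some alternative fits called single genes. With limma sample quality weights, VLDLR was at 0.62 (adjusted p = 0.00898) and AGPAT5 at 0.35 (adjusted p = 0.00666) for hypoxia with DMSO. For both stimuli against neither, that fit gave VLDLR at 0.78 (adjusted p = 0.00107) and AGPAT4 at -0.46 (adjusted p = 0.00831). The study names VLDLR among genes bound by HIF and AHR and raised by hypoxia and by ITE.

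Among other lipases and lipolysis regulators, 7 of 12 genes were tested, and ANGPTL4, a secreted inhibitor of lipoprotein lipase, was the 1 gene called. Its counts were low. It lay between 0.423 and 3.39 CPM in normoxia + DMSO and between 0 and 12.6 CPM in hypoxia + DMSO, where the value of 0 is the shallowest library. With ITE it lay between 0 and 1.60 CPM in normoxia and between 0.743 and 18.8 CPM in hypoxia, the lowest of these again being the shallow library, with 1 count. The groups overlapped in both cases. ANGPTL4 rose by 2.40 (SE 0.56, adjusted p = 0.0210) with DMSO and by 3.47 (SE 0.65, adjusted p = 0.00156) with ITE on the log2 scale. The call with DMSO was lost when any 1 of 5 libraries was left out (normoxia + DMSO replicates 1, 2 and 3 and hypoxia + DMSO replicates 5 and 6), with log2 fold changes down to 2.07 and an adjusted p of up to 0.104. Without normoxia + DMSO replicate 4, which has the highest normoxic value and the endothelial markers, it was 3.07 (adjusted p = 0.00363). For both stimuli against neither the change was 2.41 (adjusted p = 0.0147), and leaving out normoxia + DMSO replicate 2 or 3 ended that call too, with an adjusted p of up to 0.0569, whereas without replicate 4 the change was 3.09. With the compared groups alone that call was also lost, at 2.41 (adjusted p = 0.0830), and at 2.42 (adjusted p = 0.0876) with the replicate number as a block. The same block with the compared groups alone ended the call for hypoxia with ITE, at 3.39 (adjusted p = 0.107). Lipoprotein lipase itself did not pass the filter.

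In mitochondrial fatty acid oxidation, 15 of 19 genes were tested. ETFB, a subunit of the flavoprotein that carries electrons from acyl-CoA dehydrogenases, was the 1 gene called, for hypoxia and ITE together against neither (0.99, SE 0.27, adjusted p = 0.0497). It lay between 32.1 and 47.8 CPM in normoxia + DMSO and between 31.2 and 188 CPM in hypoxia + ITE, where the highest value is replicate 6. Without that library the log2 fold change was 0.51 (adjusted p = 0.180), and the call was lost when any 1 of 19 of the 24 libraries was left out. CPT2, not called in the main fit, was called lower for hypoxia with ITE by some alternatives. It was at -0.47 with DESeq2 (adjusted p = 0.0303), -0.48 with the replicate block (adjusted p = 0.0475) and -0.41 with limma weights (adjusted p = 0.0343). ETFDH was called higher for both stimuli against neither without the 2 shallowest libraries and hypoxia + ITE replicate 6 (0.68, adjusted p = 0.0357). In the main fit the lists as a whole had 1 of 55 genes called for hypoxia with DMSO, which is 1.82% beside the 1.3% of all genes. They had 1 for hypoxia with ITE, 1.82% beside 2.35%, and 2 for both stimuli against neither, 3.64% beside 2.32%, and 0 for the other comparisons.

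The genes whose levels over the 24 libraries ran closest to HILPDA were RNF24, BNIP3L, PLIN2, BHLHE40 and KDM3A, by the root mean square difference of log2 CPM after each gene was set to its own normoxia + DMSO mean. The differences ran from 0.51 for RNF24 to 0.57 for KDM3A. For PLIN2 the closest were PDK1 at 0.31, ZHX2, BNIP3L, SLC2A1 and RNF24 at 0.37. PDK1 encodes a kinase that turns pyruvate away from mitochondria, SLC2A1 a glucose transporter and BNIP3L a mitophagy receptor. PLIN2 was among the 5 genes closest to HILPDA, but HILPDA was not among the 5 closest to PLIN2.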

How the data were processed

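Directional polyA libraries of RCC4+VHL cells, 6 for each of 4 groups, were sequenced as paired ends. The authors trimmed adaptors with Trim Galore 0.3.3, aligned reads to GRCh37 with HISAT2, removed fragments without a unique position with Picard 2.0.1, and counted reads per UCSC gene with HTSeq 0.5.4p3. The deposited values are raw counts, 1 per gene symbol and library, and are not normalised. Groups and replicate numbers come from the sample labels.

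The 7 members tested were read from a fit over all genes. edgeR 4.0.16 in R 4.3.3 kept 11735 of 23106 genes (filterByExpr, minimum count 10), scaled libraries by TMM and fitted 1 mean per group to all 24 libraries with the quasi-likelihood test. Two-sided p-values were adjusted over all tested genes (Benjamini-Hochberg), and an adjusted p under 0.05 counted as a call. CPM uses the TMM-scaled library size, log2 CPM a prior count of 2, and levels per kb the MANE Select transcript of GENCODE in GRCh37. Fold changes are those of the edgeR fit at its default prior count. Poisson intervals are exact at 95% and cover counting error only, as do floors of 3 counts. The procedure was tested on simulated data.

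Total counts per library ran from 770094 to 93851342, with a median of 7981993, so precision differs widely between libraries. Replicates are independent according to the study's methods, and no pair agreed within sampling noise (chi-square per degree of freedom at least 3.33).

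The members, the lists and the rule for naming genes were chosen with earlier results of these data known. That rule names all 9 members, every listed gene with an adjusted p under 0.05 in a comparison of the main fit, NDRG1 and CYP1B1 as checks of the treatments, and the 5 genes closest in level to HILPDA and to PLIN2. Some listed genes that only an alternative fit called are named as well. Alternatives were DESeq2 1.42.0, its size factors, no filter, the replicate number as a block, the compared groups alone with and without it, limma 3.58.1 with sample quality weights, and leaving out each library. Leaving out the 2 shallowest libraries, or these and hypoxia + ITE replicate 6, with all groups or the compared groups alone, was chosen after seeing the data.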

Additional observations from a re-analysis of the deposited data

Results flagged for a closer look

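In groups of 6 libraries, a highest or lowest library was singled out when its gap to the nearest other library exceeded 0.625 of the group's whole range. This was applied to 49 groups of values with any spread, over the 9 members, ANGPTL4, ETFB, NDRG1 and CYP1B1, and 9 stood out. A chance rate of about 1 in 20 applies to independent values and is no yardstick for this tally. Of the 9, 5 share 1 library, and G0S2 had counts in only 1 library of its group. Hypoxia + ITE replicate 6 accounted for 5 of the 9. It was the highest library of its group for PLIN3 at 462 CPM (others 163 to 192), for PNPLA2 at 229 CPM (others 77.7 to 130), for DGAT1 at 32.1 CPM (others 9.66 to 17.6), for MGLL at 438 CPM (others 113 to 184) and for ETFB at 188 CPM (others 31.2 to 86.0).

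HILPDA was low in both shallowest libraries, at 15.1 CPM in hypoxia + DMSO replicate 2 (others 46.0 to 61.1) and at 10.4 CPM in hypoxia + ITE replicate 1 (others 40.2 to 46.0). PLIN3 was high in normoxia + DMSO replicate 5, at 199 CPM (others 160 to 173). G0S2 was at 0.184 CPM in normoxia + DMSO replicate 4, from 5 counts, and at 0 in the other 5 libraries of the group. PECAM1, PTPRC, LPL and FABP7 had counts in that library and in none of the other 23. No cause of these values was tested. The interaction term called no member and neither ANGPTL4 nor ETFB, with intervals that leave room for a difference: ANGPTL4 was at 1.07 (-0.68 to 2.82) and MGLL at 0.59 (-0.04 to 1.22) on the log2 scale.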

How the results depend on the processing

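The number of members called in each comparison was the same under every alternative that was run, with HILPDA and PLIN2 called in all 3 hypoxia comparisons each time, except that MGLL joined them for hypoxia with ITE when hypoxia + ITE replicate 4 was left out (3 members, against 2 otherwise, with 6.21% of all genes called against 2.35%). Over the leave-one-out fits, the log2 fold change of HILPDA ran from 1.78 to 1.98 for hypoxia with DMSO, from 1.54 to 1.78 for hypoxia with ITE and from 1.498 to 1.70 for both stimuli against neither. That of PLIN2 ran from 1.68 to 1.80, from 1.46 to 1.64 and from 1.31 to 1.496.

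Counts of pathway genes called are small and moved more, as did calls over all genes. For ITE in normoxia the count was 0, and 1 (VLDLR) with the compared groups alone and the replicate block (2.22% of all genes). For hypoxia with DMSO it was 1, and 4 with limma weights (7.16% of all genes), and 0 to 2 with 1 library left out. It was 2 without the 2 shallowest libraries and hypoxia + ITE replicate 6 (2.88%), and 2 without them and with the compared groups alone (2.22%). For hypoxia with ITE it was 1, and 3 with DESeq2 (5.74%), 3 with limma weights (5.16%), 2 with the replicate block (2.22%), 0 with the compared groups alone and the block (0.477%), and 1 to 2 with 1 library left out. For both stimuli against neither it was 2, and 1 without the filter, 1 with the replicate block, 0 with the compared groups alone (0.726%), 0 with these and the block (0.479%), 3 with DESeq2 (5.37%), 5 with limma weights (6.14%), and 0 to 3 with 1 library left out. The causes were not tested.

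Same-numbered libraries deviated together in only part of the pairs (a correlation over 0.1 in 5 of 6 for ITE in normoxia, and in 2 of 6 for ITE in hypoxia), so the numbers were not taken to pair the samples. For ITE in normoxia 10 of 12 libraries correlated best with their own number, a hint from the data and not from the design, and the block moved the calls over all genes from 6 to 13, and from 30 to 255 with the compared groups alone. There ABHD5 was at -0.18 (adjusted p = 0.212) and MGLL at -0.14 (adjusted p = 0.145), neither called. In the other comparisons, the libraries that correlated best with their own number were 7 of 12 for hypoxia with DMSO and 7 of 12 for hypoxia with ITE. They were 5 of 12 for both stimuli against neither and 3 of 12 for ITE in hypoxia. With the replicate block, HILPDA was at 1.82 and PLIN2 at 1.73 for hypoxia with DMSO, both called, and the count of members did not change in any comparison. DGAT2 and G0S2 did not pass the filter on low counts and were low at every depth, with 21 and 0 counts in the deepest library. ANGPTL4 has 0 and 1 counts in the shallowest libraries, which limits its precision there.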
